A study of Mus musculus with 9 samples.

Results

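The genes described here are 4 galectins, Lgals1, Lgals3, Lgals8 and Lgals9, and Lgals3bp, the gene of a galectin-binding protein. They are 5 of the 25494 genes in the table of library values, chosen by gene name from earlier results of the same comparisons, and all 5 are listed in each of the 3 comparisons between groups (11977 genes for GFP-TTP vs GFP, 13205 for each of the others). RNA depleted of ribosomal RNA was sequenced from immortalized bone marrow-derived macrophages of TTP-deficient mice. TTP (tristetraprolin, encoded by Zfp36) binds AU-rich elements in the 3'UTR of mRNAs and promotes their decay. The cells had been transformed with human c-Myc and a mutant Ras and carried a retroviral, doxycycline-inducible vector for GFP alone, for GFP-TTP or for the mutant GFP-TTP-AA, which has alanines at the serines through which the kinase MK2 inactivates TTP. All 3 groups lacked endogenous TTP, received doxycycline (1 µg/ml, 6 h in total) and were treated with LPS (1 µg/ml) for 1 h, so that no group was without TTP loss, doxycycline or LPS. Each group had 3 libraries, 9 in all. The transgenes hold only the coding sequence of TTP, and no second cell line per construct is described in the sources used here, so a difference between transduced lines and an effect of the transgene cannot be told apart.

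Galectins are lectins that bind β-galactosides on glycoproteins and glycolipids. They are made in the cytosol, leave the cell by a route that bypasses the classical secretory pathway, and crosslink glycoproteins at the cell surface. Within the cell they also gather on the inner glycans of damaged endosomes and lysosomes. Galectin-1 is a dimer of single lectin domains, galectin-3 joins a lectin domain to a self-associating tail, and galectin-8 and galectin-9 hold a pair of different lectin domains. Lgals3bp is not a galectin but a secreted, heavily glycosylated protein of the scavenger receptor cysteine-rich family that binds galectin-3 and galectin-1. Galectin-3 is an abundant product of macrophages and is often used to mark them.

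Lgals3bp and Lgals9 were lower with GFP-TTP than with GFP, by 7.03-fold and 2.33-fold, and higher with GFP-TTP-AA than with GFP-TTP, by 12.1-fold and 3.02-fold. Lgals1, Lgals3 and Lgals8 differed by no more than 0.19 on the log2 scale in any comparison, and none of these 3 passed the threshold of an adjusted p under 0.05. In GFP-TTP vs GFP, 2 of the 5 genes were called, both lower, where 9.16% of all listed genes were called, 4.08% higher and 5.08% lower. In GFP-TTP-AA vs GFP, 1 of 5 was called, higher, beside 17.9% of all genes, 9.11% higher and 8.77% lower. In GFP-TTP-AA vs GFP-TTP, 2 of 5 were called, both higher, beside 28.6% of all genes, 14.0% higher and 14.6% lower. The genes were chosen from these contrasts, so the counts describe the choice and nothing is read from them. The median log2 fold change of the 5 genes was -0.10, 0.13 and 0.19 in the 3 comparisons in that order, against 0.01, 0.00 and -0.01 over all listed genes. In bulk RNA, fewer cells with a transcript and less of it per cell cannot be told apart.

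The deposited library values were the fitted means of the authors' model and not measurements of single libraries. Each is a library factor multiplied by a term for the replicate number and a term for the group. They were divided here by a library factor (the median of ratios over 13159 genes) and are called levels. Since same-numbered libraries of all groups share a replicate term, the spread of 3 levels within a group shows that term and not the scatter of replicates. The error of a change is therefore given as the standard error (SE) of the log2 fold change, or as its 95% interval, from the authors' DESeq2 model of 3 libraries per group. Summed fitted counts ranged from 21482954 to 102613526 per library and stand in for depth. GFP-TTP replicate 1 had the lowest and GFP-TTP-AA replicate 3 the highest sum. Nothing in the labels says that the replicates came from separate cultures or animals, and the SE covers only the spread between these libraries. Zfp36 had levels of 1744, 1423 and 890 in GFP, 1787, 1447 and 913 in GFP-TTP and 2828, 2298 and 1443 in GFP-TTP-AA. Zfp36 therefore does not set the GFP-TTP libraries apart from those of GFP (log2 fold change 0.04 ± 0.17 SE, 95% interval -0.29 to 0.37), and the directions reported here rest on the labels. With GFP-TTP-AA, Zfp36 was called higher, by 0.69 ± 0.17 vs GFP and by 0.65 ± 0.17 vs GFP-TTP. The part of that difference in the changes with GFP-TTP-AA was not tested for Zfp36. Counts per gene cannot tell its disrupted endogenous transcript from the transgene.

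All 10 macrophage markers of the list used to check the cell type were present, with summed levels of 630244 to 872139 in GFP, 532884 to 728172 in GFP-TTP and 709678 to 975543 in GFP-TTP-AA. These sums were carried mostly by Lyz2, at a median level of 572418 over the libraries. Adgre1, which encodes the F4/80 antigen by which the cells were checked, moved in the same directions as Lgals3bp, with log2 fold changes of -0.75 ± 0.14, 0.68 ± 0.14 and 1.43 ± 0.14 (SE) in GFP-TTP vs GFP, GFP-TTP-AA vs GFP and GFP-TTP-AA vs GFP-TTP. The list did not move as one: 1, 2 and 4 of its 10 genes were called in these comparisons, and 1 of the last 4 was lower. Over all listed genes 9.16%, 17.9% and 28.6% were called. With GFP-TTP-AA vs GFP-TTP, Lyz2 (lysozyme) rose by 0.46 ± 0.10 and Spi1 (the transcription factor PU.1) by 0.40 ± 0.11, whereas Ptprc (CD45) fell by 0.34 ± 0.08. Itgam, which encodes CD11b, the other antigen used to check the cells, was at 0.06 ± 0.09, 0.20 ± 0.09 and 0.13 ± 0.09 and was not called. The part of these markers in the galectin results was not tested. Summed levels of the fibroblast list did not exceed 9.18, those of the T and B cell list 8.26 and those of the epithelial and endothelial list 17.4 in any library. The neutrophil list had summed levels of 130 to 192 in GFP, 131 to 193 in GFP-TTP and 211 to 320 in GFP-TTP-AA, carried mostly by S100a8, and the part of that difference in the results was not tested.

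Lgals3bp (ENSMUSG00000033880, chr11:118392751-118402092, minus strand, GRCm38) showed the largest changes of the 5 genes. Its level was 785, 698 and 748 in GFP replicates 1 to 3, 111, 98.2 and 106 in GFP-TTP, and 1349, 1195 and 1284 in GFP-TTP-AA. The GFP-TTP values were the lowest and those of GFP-TTP-AA the highest. As fitted means, the 3 values of a group repeat a single ratio between groups, and that they do not overlap says only that this ratio exceeds the replicate term, at most 1.12-fold for this gene (replicate 1 over 2). The lowest level rested on fitted counts of 68.0, 98.8 and 111 reads in the GFP-TTP libraries, so counting error is larger there than in the other groups.

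On the log2 scale, Lgals3bp changed by -2.81 ± 0.14 (SE) with GFP-TTP vs GFP, a level 7.03-fold lower with a 95% interval of 5.81 to 8.50. This was rank 3 by the size of the change among the 11977 genes listed, and rank 2 among decreases. With GFP-TTP-AA vs GFP the change was 0.78 ± 0.12, or 1.71-fold higher (95% interval 1.45 to 2.02). With GFP-TTP-AA vs GFP-TTP it was 3.59 ± 0.14, or 12.1-fold higher (9.98 to 14.6), rank 4 of 13205. Lgals3bp was the only one of the 5 genes called in all 3 comparisons, and GFP-TTP and GFP-TTP-AA lay on opposite sides of GFP.

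Lgals9 (ENSMUSG00000001123, chr11:78962974-78984946, minus strand) encodes galectin-9, a tandem-repeat galectin that binds the receptor TIM-3. Its level was 481, 271 and 329 in GFP replicates 1 to 3, 205, 115 and 141 in GFP-TTP, and 624, 350 and 427 in GFP-TTP-AA. The GFP-TTP values lay below all others, whereas the ranges of GFP and GFP-TTP-AA overlapped. As fitted means, they set the ratios between groups against the replicate term and not against the scatter of replicates. The replicate term was large for this gene, with replicate 1 at 1.78-fold the level of replicate 2 in every group, where the median gene differed by 1.16-fold in either direction.

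The log2 fold change of Lgals9 was -1.22 ± 0.16 (SE) with GFP-TTP vs GFP, or 2.33-fold lower (95% interval 1.88 to 2.89). It was 1.59 ± 0.16 with GFP-TTP-AA vs GFP-TTP, or 3.02-fold higher (2.44 to 3.74). Between GFP-TTP-AA and GFP it was 0.37 ± 0.15, with an interval of 0.08 to 0.67 and no call over all genes. That last value was called when each chromosome was centred on its own median, as 0.47.

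**Figure D1:**
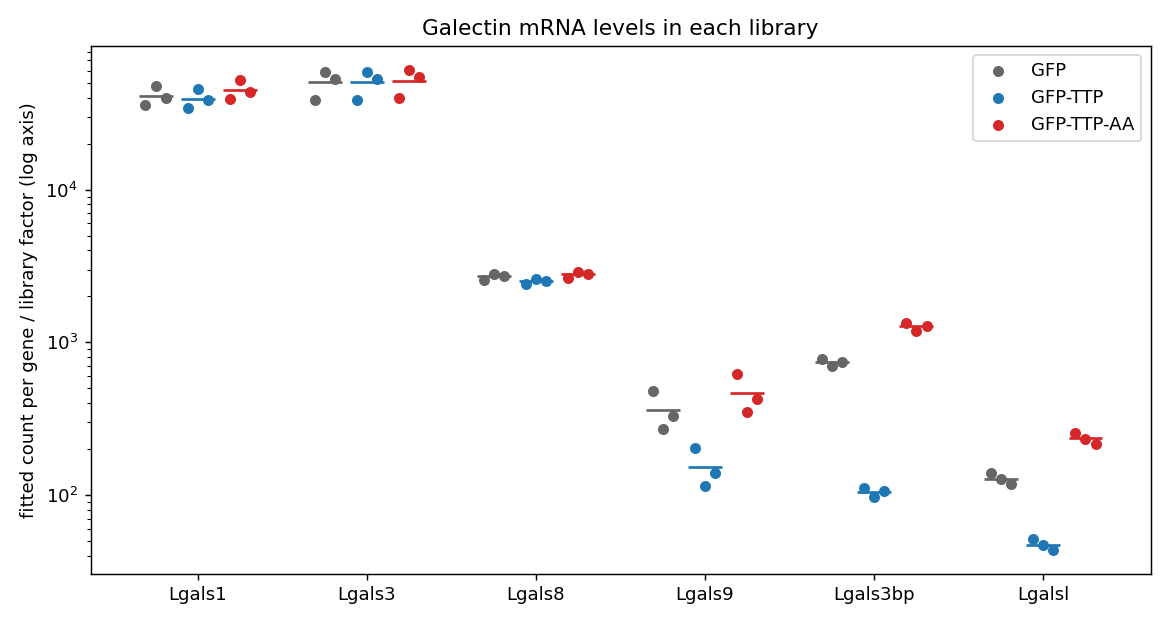
Level of each gene (fitted count divided by the library factor, log axis) in the 9 libraries, with points for replicates 1 to 3 of GFP (grey), GFP-TTP (blue) and GFP-TTP-AA (red) and a line at the mean of each group. Lgals3bp ranged from 98.2 to 111 in GFP-TTP and from 1195 to 1349 in GFP-TTP-AA, whereas the groups overlapped for Lgals1 and Lgals3; the points are fitted means, so their spread is the shared replicate term.

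Lgals3 (ENSMUSG00000050335, chr14:47367751-47386160, plus strand) encodes galectin-3. Its level was 38557, 59212 and 52767 in GFP, 38752, 59083 and 53109 in GFP-TTP, and 39640, 60637 and 54227 in GFP-TTP-AA. The 3 groups overlapped almost fully, and the 1.54-fold ratio of replicate 2 to replicate 1 exceeded any ratio between groups. Its changes were 0.01 ± 0.11, 0.04 ± 0.11 and 0.02 ± 0.11 (log2, SE) in GFP-TTP vs GFP, GFP-TTP-AA vs GFP and GFP-TTP-AA vs GFP-TTP. All 3 95% intervals lay between -0.20 and 0.25.

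Lgals1 (ENSMUSG00000068220, chr15:78926725-78930465, plus strand) encodes galectin-1. Its level was 35831, 47764 and 39923 in GFP, 34337, 45444 and 38313 in GFP-TTP, and 39302, 52185 and 43772 in GFP-TTP-AA. The groups overlapped. The log2 fold change was -0.05 ± 0.08 (SE) with GFP-TTP vs GFP and 0.13 ± 0.08 with GFP-TTP-AA vs GFP. With GFP-TTP-AA vs GFP-TTP it was 0.19 ± 0.08, and its 95% interval of 0.03 to 0.34 left out 0 but the value was not called over all genes. It passed the threshold at 0.20 when all genes were centred on their median and at 0.29 when each chromosome was.

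Lgals8 (ENSMUSG00000057554, chr13:12439415-12464944, minus strand) encodes galectin-8, which binds glycans exposed on ruptured vesicles. Its level was 2576, 2807 and 2729 in GFP, 2395, 2591 and 2541 in GFP-TTP, and 2658, 2886 and 2815 in GFP-TTP-AA. The range of GFP overlapped that of each other group, whereas GFP-TTP lay just below GFP-TTP-AA. As these are fitted means, that gap says only that the ratio of the 2 groups exceeds the replicate term, at most 1.09-fold. Changes were -0.10 ± 0.09, 0.04 ± 0.09 and 0.14 ± 0.09 (log2, SE) in the 3 comparisons in the same order, with 95% intervals of -0.28 to 0.09, -0.14 to 0.23 and -0.04 to 0.33. An exon of Lgals8 overlaps Heatr1 on the opposite strand. Of the 50-base windows of the transcript used, which lacks an annotated 3'UTR, 3.73% also occur in AC107765.2. Whether reads were counted by strand is not known here, so reads of those stretches cannot be assigned with certainty. None of the other 4 genes overlapped an exon of another gene or shared such a window.

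**Figure D2:**
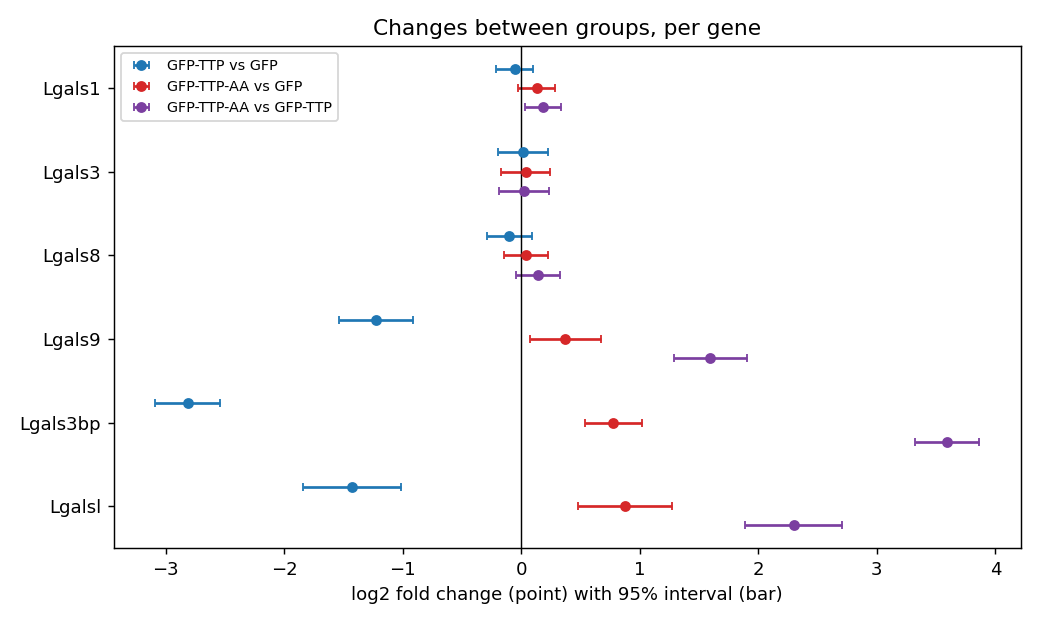
Log2 fold change (points) and 95% interval (bars) of each gene in GFP-TTP vs GFP (blue), GFP-TTP-AA vs GFP (red) and GFP-TTP-AA vs GFP-TTP (purple). Lgals3bp spans -2.81 to 3.59 and Lgals9 -1.22 to 1.59, while no change of Lgals1, Lgals3 or Lgals8 exceeds 0.19; Lgalsl, a related gene outside the 5, is shown at the bottom.

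Per kilobase of transcript, the mean level over the 9 libraries was 52343 for Lgals1, 35705 for Lgals3, 2323 for Lgals8, 304 for Lgals3bp and 206 for Lgals9. These were ranks 36, 63, 1507, 6730 and 7704 of 13133 genes with a length. The transcript used for Lgals8, of 1148 bases, has no annotated 3'UTR, so its level per kilobase and its rank may be too high. By this mean over all groups, Lgals1 and Lgals3 were both near the top of the ranking, and the 2 genes with large changes were the least abundant of the 5.

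The family list held 7 further genes. Lgals2, with levels of 5.80 to 6.49, Lgals4, with 3.95 to 4.64, Lgals7, with 1.11 to 1.22, and Lgals12, at most 0.116, were below the level of every gene listed for GFP-TTP vs GFP and were not listed in any comparison. Lgals6 and Grifin were not analysed here. The exception was Lgalsl (ENSMUSG00000042363, chr11:20823576-20831056, minus strand), which encodes a galectin-related protein not known to bind lactose. Its level was 140, 128 and 119 in GFP, 51.9, 47.0 and 44.1 in GFP-TTP, and 257, 234 and 218 in GFP-TTP-AA, again as fitted means that share a replicate term. The GFP-TTP levels rested on fitted counts of 31.8, 47.3 and 46.0 reads in replicates 1 to 3. Lgalsl fell by 1.42 ± 0.21 on the log2 scale (SE) with GFP-TTP vs GFP (adjusted p = 1.37e-09, DESeq2). It rose by 0.87 ± 0.20 with GFP-TTP-AA vs GFP (adjusted p = 0.000289) and by 2.30 ± 0.21 with GFP-TTP-AA vs GFP-TTP (adjusted p = 4.16e-26). The family list was drawn up with earlier results of these data known, so the p-values of Lgalsl are a description and no test. For 2.90% of its 50-base windows another gene held the same sequence. The call of Lgalsl against GFP for the mutant was lost after the Wald scores (log2 fold change over SE) had been scaled down by their central spread over all genes.

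All 5 genes and Lgalsl were examined for AU-rich motifs, since TTP binds these. The 3'UTR of the GENCODE release M21 transcript with the longest coding sequence was searched on the transcript strand for the pentamer ATTTA and for the longer TATTTAT, in which the pentamer lies. Over 11425 genes with a 3'UTR, 66.1% held ATTTA and 27.4% TATTTAT. Among the 5718 shorter 3'UTRs these shares were 42.4% and 11.5%. Lgals3bp, with a 3'UTR of 267 bases, and Lgals3, with 480, each held a single ATTTA and no TATTTAT. These sites are shown because one of these genes had a large change and the other had none; the pentamer is in capitals, and coordinates are GRCm38.
Lgals3bp, chr11:118392907-118392931, minus strand: tcaaatgaaaATTTActagaaggtt
Lgals3, chr14:47385762-47385786, plus strand: taagacatccATTTAataaagtctc

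Neither Lgals9 (416 bases) nor Lgals1 (321 bases) held either motif. For Lgals8 the chosen transcript has no annotated 3'UTR, and its other transcripts held up to 4 ATTTA and no TATTTAT. The longer motif was thus not found in any of the 5 genes, whether they changed or not. Lgalsl, with a 3'UTR of 2796 bases, held 12 ATTTA and 2 TATTTAT. Its 7-base sites, in capitals, are shown for contrast with the single pentamer of Lgals3bp.
Lgalsl, chr11:20825812-20825838, minus strand: tcgattaattTATTTATatttagtata
Lgalsl, chr11:20824955-20824981, minus strand: gggtggggtgTATTTATatataatttc
A match is a description of the letters and no measure of binding.

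Promoter windows (RefSeq, GRCm38.p6, around the transcription start) were searched on both strands for GAAANNGAA, the letters of an interferon-response type motif, and for TTCNNNGAA, those of a STAT type motif. Of 32851 windows, 8.56% held the former and 8.30% the latter. Among the 30 genes of the interferon-induced list in the table, 18 held the former and 7 the latter. The list is counted by gene and the shares above by window (32851 windows of 27025 genes), so they are not directly comparable. Lgals9 held 2 matches to GAAANNGAA and none to TTCNNNGAA. Both lie on the reverse strand of the gene, so the capitals below read as the reverse complement of the motif. They are shown because Lgals9 moved with a change of the same sign as many genes of that list; the first begins 54 bases before the start and the second lies after it.
Lgals9, chr11:78984960-78984988, minus strand: gacatcagctTTCTTTTTCtctagacact
Lgals9, chr11:78984890-78984918, minus strand: tagctgtggtTTCTGTTTCctagctcagc
Lgals3bp, Lgals3, Lgals8 and Lgalsl held neither motif in their windows, and Lgals1 was not analysed here.

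The list of 40 interferon-induced genes was set beside the galectins because Lgals9 and Lgals3bp are known to respond to interferon. Of 36 listed for GFP-TTP vs GFP, 23 were called lower and none higher, with a median log2 fold change of -0.62. With GFP-TTP-AA vs GFP, 9 of 38 were called higher and none lower (median 0.18), while 10 had a negative change. With GFP-TTP-AA vs GFP-TTP, 26 of 38 were called higher and none lower (median 1.04), while 2 had a negative change. The shares called were 63.9%, 23.7% and 68.4% in the 3 comparisons, beside 9.16%, 17.9% and 28.6% of all listed genes. After scaling by the central spread, 12, 2 and 14 genes of the list were called. Lgals9, at -1.22, and Lgals3bp, at -2.81, both lay below the median of the list for GFP-TTP vs GFP, and Lgals3bp lay below its lowest gene, Ifih1, an RNA sensor, at -2.34 ± 0.18. With GFP-TTP-AA vs GFP-TTP, Ifih1 rose by 3.70 ± 0.18, Oasl1, an inhibitor of Irf7 translation, by 3.04 ± 0.19, Cmpk2, a mitochondrial nucleotide kinase, by 2.60 ± 0.21, and Sp100, a nuclear body protein, by 2.08 ± 0.15. The value of Lgals3bp, 3.59, lay between those of Ifih1 and Oasl1. Over all genes, 419 were called lower in GFP-TTP than in GFP and higher in GFP-TTP-AA than in GFP-TTP, as Lgals3bp and Lgals9 were, and 21 of them were in the interferon-induced list. These comparisons share the GFP-TTP libraries. The part of interferon in the changes of Lgals9 and Lgals3bp was not tested.

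**Figure D3:**
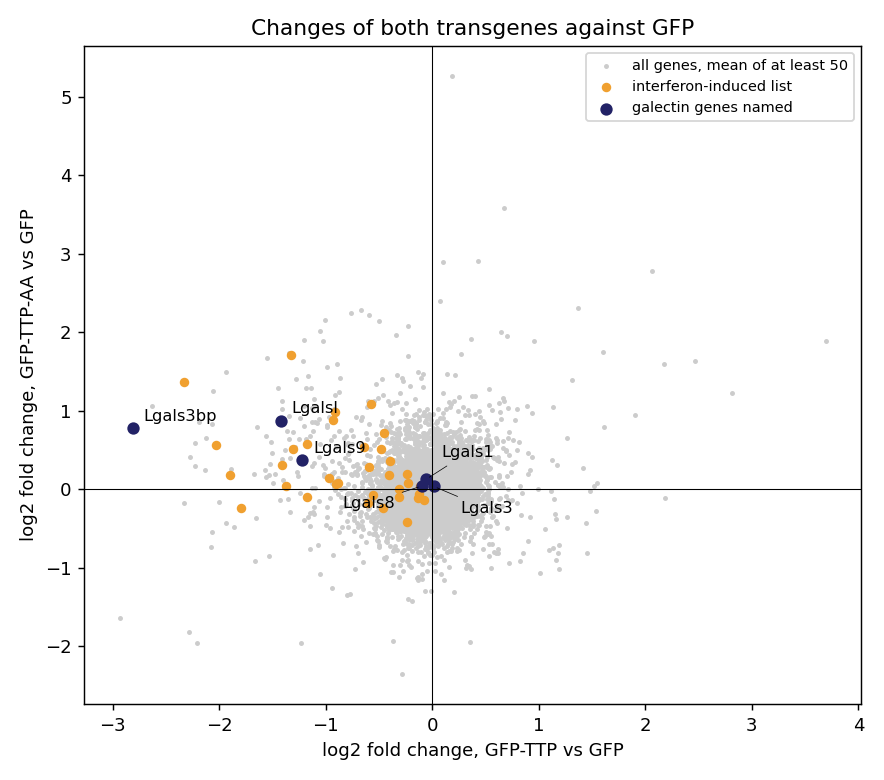
Log2 fold change of each gene with GFP-TTP vs GFP (x axis) and with GFP-TTP-AA vs GFP (y axis), for 11142 genes with a mean normalized count of at least 50; orange points are the interferon-induced list and dark points the galectin genes. Lgals3bp lies near the left edge at -2.81 and 0.78, Lgals9 lies among the orange points at -1.22 and 0.37, and Lgals1, Lgals3 and Lgals8 lie in the central mass; both axes share the GFP libraries.

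The genes nearest to each member by distance in the plane of both changes against GFP (in log2 units, over the 3 groups) were found among 11142 genes. For Lgals3bp they were Cdc42bpa (distance 0.339), which encodes a Cdc42-binding kinase, Sh3d19 (0.615) and Rnf217 (0.624), and no gene lay within 0.1. For Lgals9 they were Ch25h (0.114), which encodes cholesterol 25-hydroxylase, H2-T24 (0.117), an MHC class I gene, and Sesn3 (0.122), again with no gene within 0.1. None of these nearest genes of Lgals3bp and Lgals9 was in the interferon-induced list. Lgals1, Lgals3 and Lgals8 had 956, 1403 and 985 genes within 0.1. Their nearest genes were Rnf185, Pet100 and Ugt1a7c for Lgals1, Zfp961, Upf1 and Tcea1 for Lgals3, and Fam213a, Zfp626 and Fbxo28 for Lgals8, at distances of 0.00189 to 0.00544.

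Lgals3bp, Lgals9 and Lgalsl all lie on chromosome 11, far apart. The medians over all listed genes of that chromosome were 0.03, -0.10 and -0.14 (log2) in GFP-TTP vs GFP, GFP-TTP-AA vs GFP and GFP-TTP-AA vs GFP-TTP. The 10 listed neighbours of Lgals3bp, 5 on each side, had medians of -0.13, -0.03 and 0.01, and 0, 3 and 3 of them were called. Those of Lgals9 had medians of -0.00, -0.10 and -0.14, with 0, 1 and 1 called. Those of Lgalsl had medians of -0.02, -0.25 and -0.17, with 0, 2 and 4 called. Over all listed genes 9.16%, 17.9% and 28.6% were called in these comparisons. No neighbour of Lgals3bp moved by more than 0.75 in size with GFP-TTP-AA vs GFP-TTP, where Lgals3bp moved by 3.59.

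**Figure D4:**
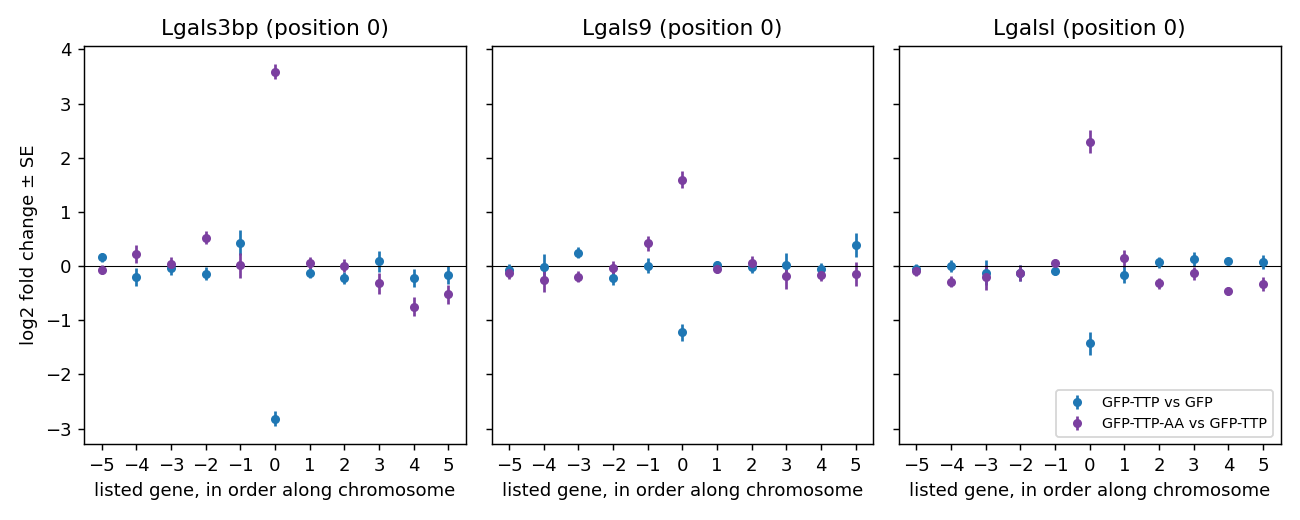
Log2 fold change ± SE with GFP-TTP vs GFP (blue) and GFP-TTP-AA vs GFP-TTP (purple) of Lgals3bp, Lgals9 and Lgalsl (position 0) and of the 5 listed genes on either side, in order along chromosome 11. With GFP-TTP vs GFP none of the neighbours of the 3 genes was called, and their changes lie between -0.22 and 0.43.

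The partners to which galectins bind were compared in a list of 26 receptors and glycoproteins. In GFP-TTP vs GFP, 1 of 23 listed was called higher, Cd9, a tetraspanin named after its value was seen (0.48), and none lower. In GFP-TTP-AA vs GFP, 9 of 24 were called higher and 1 lower, with a list median of 0.15. In GFP-TTP-AA vs GFP-TTP, 7 of 24 were called higher and 3 lower (median 0.20). The shares called were 4.35%, 41.7% and 41.7% in the 3 comparisons, beside 9.16%, 17.9% and 28.6% of all listed genes. In the last comparison Spn (CD43, a sialomucin) rose by 1.62 ± 0.19 (log2, SE), Cd82 (a tetraspanin) by 1.03 ± 0.12, Cd47 (the ligand of SIRPα) by 0.94 ± 0.15, and Cd36 (a scavenger receptor) by 0.92 ± 0.23. The 3 called lower were Cd9 by 0.69 ± 0.12, Nrp1 (neuropilin-1) by 0.47 ± 0.13 and Ptprc, also among the macrophage markers, by 0.34 ± 0.08. Of these, Cd9 and Nrp1 were named after their values were seen. The lysosomal glycoproteins Lamp1 and Lamp2, ligands of galectin-3, rose by 0.37 ± 0.07 and 0.39 ± 0.10. Slc3a2 (CD98, which binds galectin-3) rose with GFP-TTP-AA vs GFP by 0.33 ± 0.10 and was at 0.16 ± 0.10 vs GFP-TTP. Havcr2, which encodes the galectin-9 receptor TIM-3, was at -0.31 ± 0.13, -0.23 ± 0.13 and 0.07 ± 0.13 in the 3 comparisons and was not called. Cd44, a hyaluronan receptor, was at -0.13 ± 0.16, 0.11 ± 0.16 and 0.24 ± 0.16, and was not called either. Mertk, a receptor for dying cells, was listed only for the comparisons with GFP-TTP-AA, at -0.02 ± 0.22 vs GFP and 0.26 ± 0.22 vs GFP-TTP, without a call. After scaling by the central spread, 0, 2 and 2 partners were called in the 3 comparisons.

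The list of the damaged-membrane response, through which galectin-3, galectin-8 and galectin-9 meet autophagy and the mTORC1 and AMPK pathways, had 24 listed genes. None was called in GFP-TTP vs GFP by DESeq2 at an adjusted p under 0.05, beside 9.16% of all listed genes. An unadjusted p under 0.05 was found for 4. In GFP-TTP-AA vs GFP, 4 were called higher and 4 lower (33.3%, beside 17.9% of all listed genes). In GFP-TTP-AA vs GFP-TTP, 6 were called higher and 3 lower (37.5%, beside 28.6%), with a median of 0.00. In the latter, Rragb and Rraga, which encode Rag GTPases of mTORC1 activation, moved in opposite directions, at 1.02 ± 0.18 and -0.65 ± 0.13. Ulk1, a kinase that starts autophagy, rose by 0.76 ± 0.17, and Optn, an autophagy receptor, by 0.50 ± 0.16. After division by the central spread no gene of this list was called in either comparison with GFP-TTP-AA.

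Enzymes that build or cap the glycans to which galectins bind formed a list of 40, of which 37 were listed. Of these, 2 were called higher and 4 lower in GFP-TTP vs GFP, and 5 higher and 7 lower in GFP-TTP-AA vs GFP. In GFP-TTP-AA vs GFP-TTP, 4 were called higher and 6 lower (medians -0.05, 0.02 and 0.02 in the 3 comparisons). That was 16.22%, 32.43% and 27.03% of the 37, beside 9.16%, 17.9% and 28.6% of all listed genes. Related sialyltransferases moved in opposite directions, as with GFP-TTP-AA vs GFP-TTP St3gal6 fell by 1.15 ± 0.11 (log2, SE), whereas St3gal1 rose by 0.80 ± 0.19. In the same comparison Fut8, the core fucosyltransferase, rose by 0.69 ± 0.12. The galactosyltransferase B4galt3 fell by 0.40 ± 0.12 with GFP-TTP and by 0.72 ± 0.12 with GFP-TTP-AA, each vs GFP. Mgat5, which makes the branched N-glycans that galectin-3 prefers, was at 0.04 ± 0.09, 0.22 ± 0.09 and 0.18 ± 0.09 in the 3 comparisons and was not called. With division by the central spread, 0, 1 and 1 genes of this list were called.

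**Figure D5:**
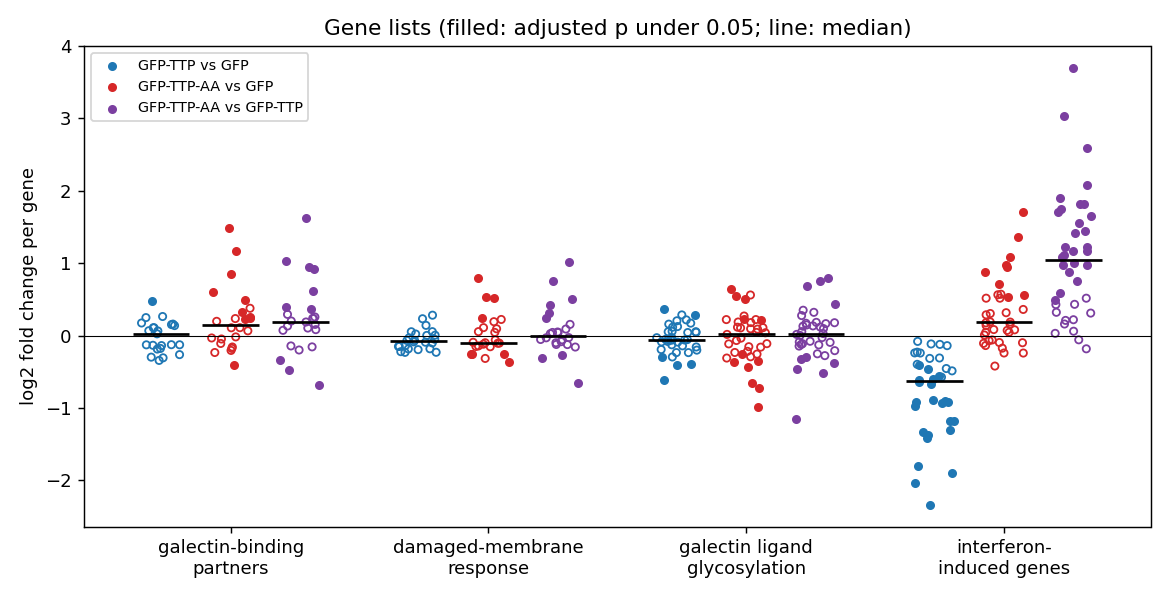
Log2 fold change of each listed gene of 4 lists in GFP-TTP vs GFP (blue), GFP-TTP-AA vs GFP (red) and GFP-TTP-AA vs GFP-TTP (purple); filled points have an adjusted p under 0.05 and black lines are medians. The interferon-induced list has medians of -0.62, 0.18 and 1.04, while those of the other lists lie between -0.09 and 0.20.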

How the data were processed

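The 5 genes, the gene lists and the tests were chosen with earlier results of these data known. Per the labels and methods, the authors trimmed reads (Trim Galore), aligned them with TopHat (the labels name TopHat2 2.0.12) to GRCm38 with Ensembl annotation, counted reads per gene with HTSeq and fitted DESeq2 1.6.3 with library date and condition as terms, Wald tests and no Cook's filter. Strand use was not stated. The deposited library signal, named as normalized counts, was checked: no value was 0, and its log2 values had 4 nonzero dimensions after centring where 9 free libraries would give 8. Between libraries of the same number, log2 ratios matched the deposited log2 fold changes up to a constant, within 1.42e-14, so these are fitted means with no replicate scatter.

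The limma fit planned for them could not be made. The authors' deposited comparison tables were used in its place: mean signal, log2 fold change with SE, Wald score, and p-value with its adjusted value, called at an adjusted p under 0.05. They are the authors' own comparisons, and since the 5 genes were chosen from them, their calls are given as a description and not as a test. Whether fold changes were shrunk is not given in the sources used here. With GFP-TTP-AA vs GFP the SE was 0.22 for Mertk at a mean of 18.8 and 0.23 for Cd36 at a mean of 1457. If shrunk, the folds, intervals and levels given here are drawn toward 0, most for genes with few reads. Intervals of 95% are the log2 fold change ± the normal quantile times SE. The adjusted p-values were within 0.00114 of a Benjamini-Hochberg adjustment over listed genes. Repeated identifiers (3 per table) were counted once.

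Levels per library are fitted counts divided by the median of ratios over genes with a mean fitted count of at least 10. Genes named beside the 5 were, per list, the 4 with the largest change in any comparison at a mean of at least 50, genes fixed by name (Mgat5, Havcr2, Lamp1, Lamp2, Mertk, Cd44, Slc3a2, Zfp36), and the 3 nearest genes per member. Cd9, Nrp1 and Itgam were named outside this rule. Gene positions, lengths of transcripts and their 3'UTRs were read from GENCODE M21 (GRCm38, a later annotation than the authors'), promoters from RefSeq. The steps that adjust p-values were tested on simulated data. Python 3.11.15, numpy 2.4.6, pandas 2.3.3, scipy 1.17.1 and matplotlib 3.10.9 were used.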

Additional observations from a re-analysis of the deposited data

How the results depend on the processing

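Of 75 changes of the 5 genes recomputed under 5 alternatives, 72 kept their direction and their side of the threshold, none reversed and 3 gained a call. The alternatives were Wald scores divided by their central spread, centring on the median of all genes or of each chromosome, adjustment over genes in all 3 tables, and a mean of at least 50. Only the centrings alter the log2 fold change, by subtracting a median, so under the other alternatives the direction could not change. The genes were chosen from these same values, so the tally is a description and no test. Lgals9 in GFP-TTP-AA vs GFP became 0.47 when centred by chromosome, which made 2 called members there. Lgals1 in GFP-TTP-AA vs GFP-TTP became 0.20 and 0.29 when centred on all genes and by chromosome. All 30 level values under other library factors kept within the spread between libraries.

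List counts depended more on the setting. Dividing Wald scores by their central spread (1.51, 1.77 and 2.17) left 247, 197 and 266 of all genes called. In GFP-TTP vs GFP it left 0 galectin-binding partners, 0 glycosylation genes and 12 interferon-induced genes. In GFP-TTP-AA vs GFP it left 0 other family genes, 2 partners, 0 of the damaged-membrane list, 1 glycosylation gene and 2 interferon-induced genes. In GFP-TTP-AA vs GFP-TTP it left 2 partners, 0 of the damaged-membrane list, 1 glycosylation gene and 14 interferon-induced genes. Centred by chromosome, GFP-TTP vs GFP had 2 partners and 3 glycosylation genes called. The cause was not tested. No paired analysis was possible because fitted means hold no scatter around which a block could be fitted; the authors' model already has a term that splits the libraries as the replicate numbers do. Leaving out a replicate could not be run either, and Lgals3bp in GFP-TTP and Lgalsl rest on few reads, those of Lgalsl being fewest in GFP-TTP.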
